A study of Mus musculus with 12 samples.

Results

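Genes that sense nucleic acids through STING and the Toll-like receptors (TLRs) were followed in lupus-like mouse skin. They were the cytosolic adaptor Sting1, the endosomal receptors Tlr3, Tlr8 and Tlr9, the adaptor Myd88, the kinase Tbk1 and the transcription factors Irf3 and Irf5. These genes were chosen by name, through the RefSeq identifier of their probe, with earlier results of these data known. A named list of 9 genes gave 8 with a probe among 561 gene probes, and the remaining gene, Tlr7, was not analysed here. All 8 stood above background in at least 4 of the 12 libraries and were tested together with the other panel genes, 451 in all.

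STING sits on the endoplasmic reticulum and is switched on by the cyclic dinucleotide that cGAS makes when it meets DNA in the cytosol. It then recruits Tbk1, which phosphorylates Irf3, and Irf3 drives interferon genes. Tlr3 reads double-stranded RNA, Tlr9 reads CpG-rich DNA and Tlr8 is known from human cells as a reader of single-stranded RNA. All TLRs named here except Tlr3 signal through Myd88, with Irf5 among the transcription factors downstream. In human cutaneous lupus these routes are studied because dying keratinocytes and immune complexes supply nucleic acids and interferon-induced genes are raised in lesions.

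The RNA came from frozen skin of 12 female mice, 1 library per mouse and 4 mice per group, hybridised to a NanoString panel of immune genes, in which barcodes are counted per transcript. Every mouse, controls included, had received CD4 T cells of the OT2 line, which recognise an ovalbumin peptide and had been cultured for 10 days towards a Th2 state. Skin was taken when disease was first seen, after 3 to 4 weeks, from lesions in diseased mice and from matching body sites in littermates. CLE mice (cutaneous lupus erythematosus) were rtTA+K5TGO+TLR9ko/ko, of the parental strain, expressed the autoantigen and kept their Merkel cells. Merkel het CLE mice were rtTA+K5TGO+ with Atoh1flox/wt K14Cre+, and their labels state that part of the Merkel cells was lost. Merkel het CLE 1 and 2 were TLR9wt/wt, and 3 and 4 were TLR9ko/ko. Littermates lacked rtTA, K5TGO or both and had a disease score of 0. Littermate 1 was rtTA-K5TGO-TLR9ko/wt with Atoh1flox/flox K14Cre-, and littermate 2 was rtTA-K5TGO+TLR9ko/ko with Atoh1wt/wt K14Cre-. Littermate 3 was rtTA-K5TGO+TLR9ko/ko with Atoh1flox/wt K14Cre+, and littermate 4 was rtTA+K5TGO-TLR9ko/ko with Atoh1flox/flox K14Cre+. Littermates 3 and 4 are described as having lost part and all of their Merkel cells. Merkel cells do not develop without Atoh1, and K14Cre is active across the whole epidermis rather than in Merkel cells alone. The general description of the series gives TLR9 as absent throughout, whereas the sample labels, which were followed, do not.

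Gene counts per library ran from 99297 in littermate 2 to 682043 in Merkel het CLE 1. Littermate 2 and CLE 1 had the highest background thresholds, at 116 and 106 units of the deposited signal, against 17.6 to 53.2 units elsewhere. A library's threshold is the mean plus 2 SD of its negative control probes. The panel holds no marker of Merkel cells and, of the skin epithelial markers, Defb1 and Defb14 alone, so neither the loss of Merkel cells nor the epidermal share could be checked. The B cell markers Cd79a and Pax5 were below background in all 12 libraries. Mice share title numbers (23 in Merkel het CLE 1 and 2 and littermates 1 and 2, 38 in littermates 3 and 4, 167 in CLE 3 and 4) that the sources used here do not explain, so the libraries may not be independent. Only CLE mice are labelled as the parental strain, and none shares a title number with a mouse of another group. In CLE against littermates, disease therefore cannot be told apart from strain or title number. The same holds for Merkel cell loss in Merkel het CLE against CLE.

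Upstream windows in the RefSeq table used (build GRCm38.p6) were searched for 7 of the 9 listed genes, a list that includes Tlr7. Sting1 was left out of the search, so whether its window holds a motif was not tested. Not every other listed gene had a window in that table. Of the 7 genes, 3 matched at least 1 of 3 motifs searched on both strands of the 250 bases before the start. The motifs were the interferon-response core GAAANNGAAA, the STAT-binding GAS palindrome TTCNNNGAA and the NF-kB motif GGGANTTTCC. The stretches with a match are shown because interferon regulatory factors, STATs and NF-kB are the transcription factors that act downstream of these sensors. The 32851 mouse windows of that length that were searched do not cover the whole genome. Of these windows, 2.98% held the interferon-response core, 7.02% the GAS palindrome and 0.356% the NF-kB motif. In Myd88 the interferon-response core lay 40 to 31 bases before the start and overlapped a GAS palindrome at 46 to 38. Tlr8 held a GAS palindrome at 106 to 98 and Tlr3 an NF-kB motif at 211 to 202. The start that the table gives for Tlr3 lies inside the span of the gene in RefSeq, which runs from 45395665 to 45411075 on the minus strand of chromosome 8, so that window is upstream of this start and not of the whole gene. A match is a run of letters, not a shown binding site. The lines give the minus-strand listing of RefSeq for chr9:119340019-119340268 (Myd88), chrX:167264370-167264489 (Tlr8) and chr8:45410511-45410630 (Tlr3), with the matched letters in capitals.
Myd88: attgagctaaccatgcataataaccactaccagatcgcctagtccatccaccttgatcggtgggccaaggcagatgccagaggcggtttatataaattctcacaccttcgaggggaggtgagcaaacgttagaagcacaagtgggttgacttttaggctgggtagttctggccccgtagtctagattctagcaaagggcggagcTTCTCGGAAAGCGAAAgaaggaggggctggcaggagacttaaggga
Tlr8: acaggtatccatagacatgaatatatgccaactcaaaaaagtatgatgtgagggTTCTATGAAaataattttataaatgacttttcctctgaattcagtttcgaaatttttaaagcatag
Tlr3: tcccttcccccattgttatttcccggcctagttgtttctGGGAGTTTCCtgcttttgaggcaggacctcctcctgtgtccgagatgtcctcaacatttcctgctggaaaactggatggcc

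Sting1 had the largest difference of the 8 genes between diseased and littermate skin. Its signal was 54.3, 44.5, 69.9 and 52.0 units in littermates 1 to 4, with littermate 2 below its own background. It was 378, 207, 69.8 and 261 units in CLE 1 to 4 and 292, 156, 242 and 94.2 units in Merkel het CLE 1 to 4. Every diseased mouse except CLE 3, which had a disease score of 1, stood above every littermate. CLE 3 stood level with the highest littermate.

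Mean Sting1 signal (± SD, n = 4) was 55.2 ± 10.7 units in littermates, 229 ± 128 units in CLE mice and 196 ± 88.2 units in Merkel het CLE mice. Sting1 rose in Merkel het CLE against littermates by 1.70 ± 0.50 on the log2 scale of signal plus 1 (SE, n = 4 per group), or 3.26-fold, with a limma adjusted p of 0.0463. It was the single gene of the 8 to pass, where 4.88% of the 451 tested genes passed as higher, 6.87% as lower and 11.8% in either direction. In CLE against littermates the difference was 1.82 ± 0.50, with a 95% interval of 0.73 to 2.91 and an adjusted p of 0.111, so it did not pass. No gene of the panel passed in that comparison (0.0%), although 26.6% had an unadjusted p under 0.05. The comparisons share the 4 littermates. With both disease groups in 1 contrast, Sting1 rose by 1.76 ± 0.43 with an adjusted p of 0.0424, a call kept in 4 of 12 fits that left out 1 library (adjusted p up to 0.119), where 5.32% of tested genes passed as higher and 10.2% in either direction.

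For Merkel het CLE against littermates, leaving out 1 of the 12 libraries at a time kept the difference between 1.47 and 2.01 but lost the call in 9 of 12 fits, with adjusted p up to 0.133. It was lost without any 1 of the littermates, any 1 of the Merkel het CLE mice, or CLE 2. Calls over all tested genes, 53 in the main fit, numbered 5, 4, 2 and 5 without littermates 1 to 4. They numbered 7, 59, 9 and 15 without Merkel het CLE 1 to 4, and 30 without CLE 2. With both disease groups together the Sting1 call was lost without any 1 of the littermates, CLE 2, CLE 4, or Merkel het CLE 1 or 3. Without CLE 3, Sting1 passed in CLE against littermates as well, at 2.31 with an adjusted p of 0.00569. In that fit 138 of the tested genes passed, against 0 in the main fit. Relative to the median of all genes, which lay 0.35 above 0 in CLE against littermates and 0.01 above it in Merkel het CLE against littermates, Sting1 lay on the same side in both. Over 24 alternative settings its lowest difference was 1.35 in CLE and 1.37 in Merkel het CLE. Skin RNA was measured in bulk, so a change in the number of cells that carry a transcript and a change in RNA per cell cannot be told apart.

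**Figure D1:**
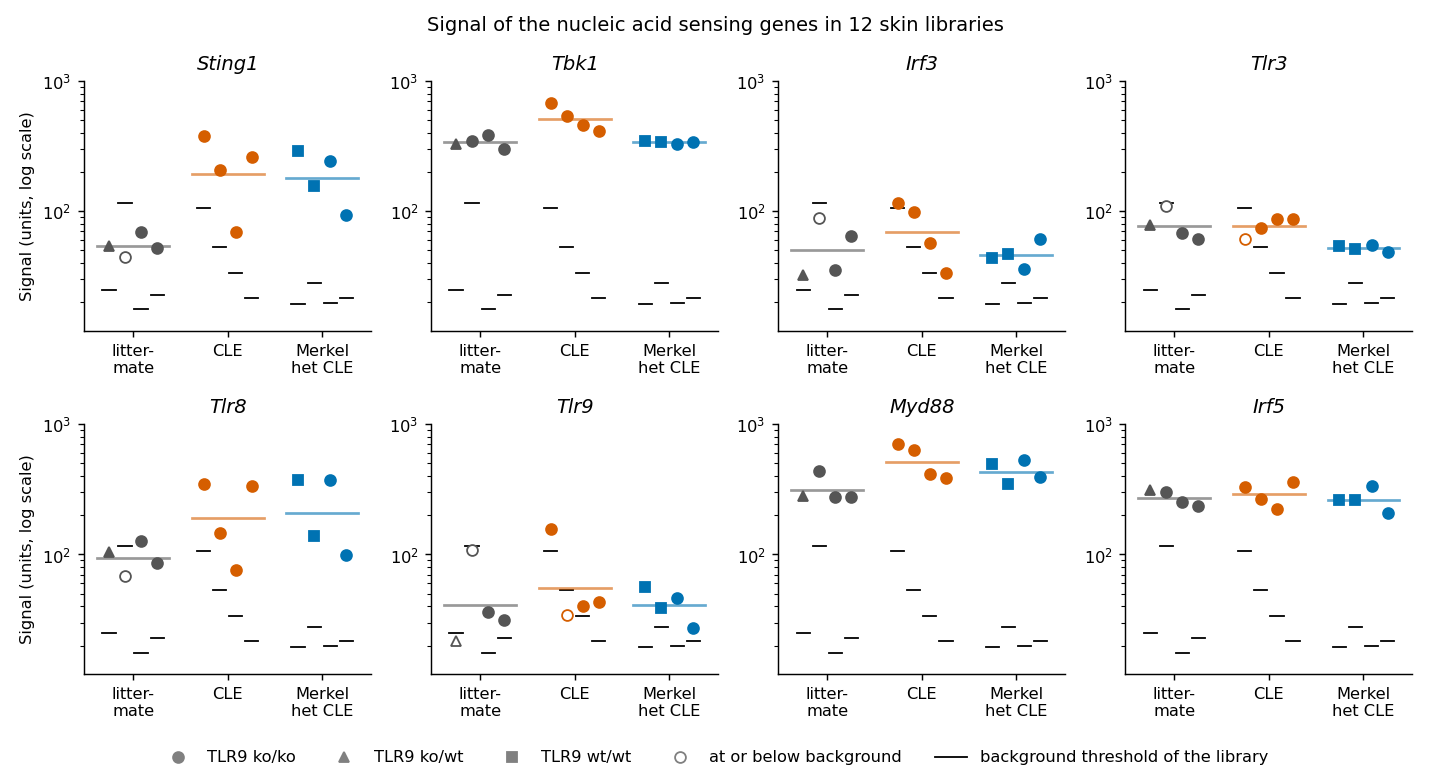
Deposited signal in units, on a log axis, of the 8 nucleic acid sensing genes in 4 littermate, 4 CLE and 4 Merkel het CLE libraries. Each point is 1 mouse, the coloured line is the mean of the group on the log scale, the short black line is the background threshold of that library, and open points lie at or below it. Sting1 is higher in 7 of 8 diseased mice than in any littermate, while the 4 highest Tbk1 values are those of the CLE mice.

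Of the receptors, Tlr8 followed a similar order with more spread. Its signal was 104, 68.7, 127 and 85.9 units in littermates 1 to 4, again with littermate 2 below background. It was 350, 146, 75.4 and 333 units in CLE 1 to 4 and 376, 138, 374 and 99.7 units in Merkel het CLE 1 to 4. In each disease group the values fell into a high pair and a low pair. Of each low pair, 1 mouse (CLE 3 and Merkel het CLE 4) lay inside the littermate range and the other just above it.

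The Tlr8 difference was 1.01 ± 0.56 in CLE and 1.15 ± 0.56 in Merkel het CLE against littermates (limma adjusted p = 0.258 and 0.192). With both disease groups together it was 1.08 ± 0.48 with an adjusted p of 0.143. Tlr8 did not pass in any of these comparisons. The libraries with high Tlr8 were also high in the sum of 9 macrophage and monocyte markers. That sum was 10314 and 4452 units in CLE 1 and 4 and 5030 and 7276 in Merkel het CLE 1 and 3. It was 1291 to 2844 in the other 4 diseased libraries and 1278 to 2193 in littermates. Sting1 was also highest in these 4 libraries. None of the 9 markers passed in CLE or in Merkel het CLE against littermates, though all 9 had positive differences in both. The part of these markers in the Tlr8 and Sting1 values was not tested.

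Tlr3, the receptor for double-stranded RNA, had its 4 lowest values in the Merkel het CLE mice. It read 79.0, 109, 67.9 and 61.7 units in littermates 1 to 4 and 61.2, 74.1, 88.0 and 87.0 units in CLE 1 to 4. It read 53.7, 50.9, 54.99 and 48.5 units in Merkel het CLE 1 to 4, below all other libraries. The values of littermate 2 and CLE 1 lay under their own background thresholds and cannot be told from background.

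The Tlr3 difference was -0.57 ± 0.26 in Merkel het CLE against littermates and -0.55 ± 0.26 against CLE, with limma adjusted p of 0.174 and 0.277. Neither passed. An exact two-sided permutation test of Tlr3 alone gave 0.0286 in both cases, the smallest p that 4 against 4 allows, without adjustment for the other genes. Of the 8 genes, Sting1 and Tlr3 did not overlap between Merkel het CLE and littermates, against 30.6% of all tested genes. In CLE against littermates the Tlr3 difference was -0.01 ± 0.26. When each lane's mean negative control was subtracted first, the difference between Merkel het CLE and CLE turned to 0.83. CLE 1 then fell to -1.39 units and was set to a floor of 1. CLE 2 to 4 read 46.6, 68.6 and 76.0 units, against 35.2 to 44.1 in Merkel het CLE.

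Tlr9 gave few counts and separated neither the groups nor the labelled genotypes. It rested on 22, 27, 36 and 26 barcode counts in littermates 1 to 4, on 28, 14, 29 and 37 in CLE 1 to 4 and on 78, 40, 54 and 30 in Merkel het CLE 1 to 4. In 3 libraries (littermates 1 and 2 and CLE 2) this was at or below the background threshold. The 2 TLR9wt/wt mice had 2 of the 3 highest barcode counts, which also reflect the depth of those libraries. In deposited units they read 55.8 and 39.2, inside the range of 27.4 to 156 of the 9 ko/ko mice. The sources used here do not place the probe relative to the deletion in Tlr9, and the gene therefore checks no label.

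Within Merkel het CLE, the only group with both homozygous genotypes, Tlr9 differed by -0.38 ± 0.80 between ko/ko and wt/wt mice (2 mice each). Sting1 differed by -0.49 ± 0.77 in the same contrast, with a 95% interval of -2.20 to 1.22. Of the panel, 0.0% passed by limma and 0.222% (1 gene) had an unadjusted p under 0.05. Both wt/wt mice carry title number 23 and the ko/ko mice 33 and 36, so genotype and title number cannot be told apart. The other 6 genes differed by -0.24 to 0.14, and the adjusted p was 0.999 for all 8.

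Myd88, the adaptor that most TLRs share, was present well above background in all 12 libraries. It read 283, 441, 276 and 277 units in littermates 1 to 4 and 701, 634, 415 and 386 units in CLE 1 to 4. It read 493, 346, 531 and 391 units in Merkel het CLE 1 to 4. Apart from littermate 2, which stood far above the other littermates, every littermate lay below every diseased mouse.

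The Myd88 difference was 0.72 ± 0.27 in CLE and 0.47 ± 0.27 in Merkel het CLE against littermates (limma adjusted p = 0.130 and 0.249), or 1.65-fold and 1.38-fold. With both disease groups together it was 0.60 ± 0.23. The adjusted p was 0.0956, so the gene did not pass, and an exact two-sided permutation test of Myd88 alone gave 0.0242. With each lane centred on its median, the CLE difference was 0.25. With array weights, which give noisy libraries less influence, Myd88 passed in both disease groups. In that setting 108 of the tested genes passed in CLE and 185 in Merkel het CLE against littermates. The main fit called 0 and 53.

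Tbk1, the kinase that STING and Tlr3 signalling share, had its 4 highest values in the 4 CLE mice. It read 331, 348, 387 and 303 units in littermates 1 to 4 and 684, 541, 461 and 411 units in CLE 1 to 4. It read 347, 339, 327 and 338 units in Merkel het CLE 1 to 4. The 4 CLE values did not overlap with any other library, and the Merkel het CLE values lay inside the littermate range. Within CLE, Tbk1 fell in the order of the factors by which lane counts were multiplied (5.56, 2.47, 1.40 and 1.16 in CLE 1 to 4). Myd88 and Irf3 fell in the same order in these mice. Littermate 2, with a factor of 4.04, read less Tbk1 than littermate 3, with 1.01. The part of lane scaling in these values was not tested.

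Mean Tbk1 signal (± SD, n = 4) was 524 ± 119 units in CLE mice, 342 ± 35.2 units in littermates and 338 ± 8.43 units in Merkel het CLE mice. The difference was 0.59 ± 0.20 in CLE against littermates and -0.61 ± 0.20 in Merkel het CLE against CLE, with limma adjusted p of 0.130 and 0.185. Neither passed over all genes. An exact permutation test of Tbk1 alone gave 0.0286 for each, the smallest p possible. It was the 1 gene of the 8 without overlap in CLE against littermates, where 11.1% of tested genes did not overlap. Tbk1 and Tlr3 did not overlap between Merkel het CLE and CLE, against 7.98% of tested genes, and 0 of the 8 genes passed, against 0.222%. With each lane centred on its median, the CLE difference was 0.12. Between Merkel het CLE and littermates Tbk1 differed by -0.01 ± 0.20, with a 95% interval of -0.45 to 0.42.

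**Figure D2:**
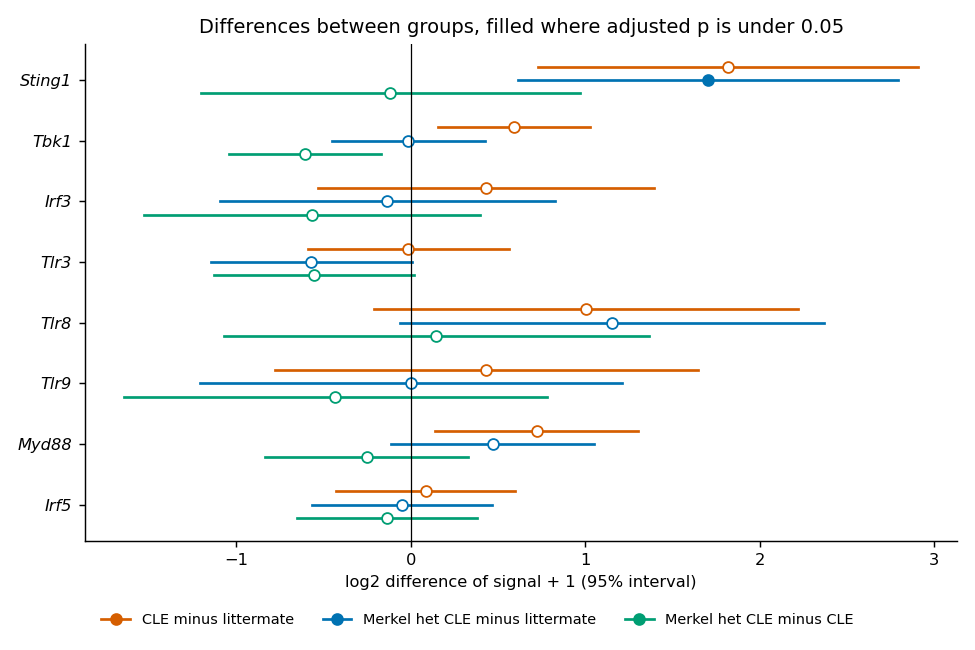
Log2 differences of signal plus 1 of the 8 genes in 3 group comparisons, with 95% intervals from limma. The only filled point, for an adjusted p under 0.05, is Sting1 in Merkel het CLE against littermates at 1.70. Before adjustment over the 451 genes, the intervals of Sting1, Myd88 and Tbk1 exclude 0 in CLE against littermates. In that comparison 26.6% of tested genes had an unadjusted limma p under 0.05. The interval of Tbk1 also excludes 0 in Merkel het CLE against CLE.

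The transcription factors of the pathway differed less. Irf3 was low, at 32.6 to 89.0 units in littermates, 33.7 to 117 in CLE and 36.1 to 61.3 in Merkel het CLE, and these ranges overlapped. Its differences from littermates were 0.43 ± 0.44 in CLE and -0.13 ± 0.44 in Merkel het CLE. The 3 highest Irf3 values came from CLE 1, CLE 2 and littermate 2, whose background thresholds were the highest of all. Irf5 lay at 234 to 313 units in littermates, 223 to 361 in CLE and 209 to 335 in Merkel het CLE. Its differences from littermates were 0.08 ± 0.24 and -0.05 ± 0.24, with 95% intervals of -0.43 to 0.60 and -0.57 to 0.47. The smallest adjusted p of Irf3 and Irf5 over the 3 group comparisons was 0.508.

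Disease scores were 2.5, 1, 1 and 3 in CLE 1 to 4 and 3, 2, 2 and 2.5 in Merkel het CLE 1 to 4. In a fit of the 8 diseased mice that allowed each group its own level, Tlr8 differed by 0.84 ± 0.39 and Sting1 by 0.65 ± 0.37 on the log2 scale per unit of score (SE). Their adjusted p was 0.718 for both, and 0.0% of the panel passed, with 4.43% at an unadjusted p under 0.05. Signal did not follow score throughout. Merkel het CLE 4, with a score of 2.5, had the lowest Sting1 and Tlr8 of its group, and CLE 1, with a score of 2.5, read higher in both genes than CLE 4, with a score of 3. The other 6 genes had slopes of -0.20 to 0.42.

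**Figure D3:**
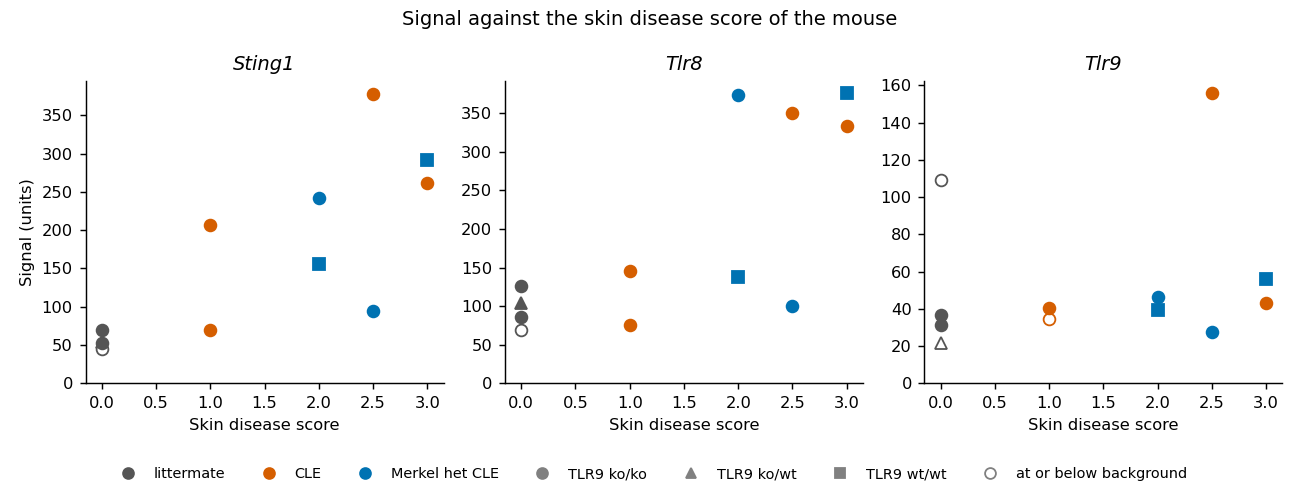
Deposited signal of Sting1, Tlr8 and Tlr9 (linear axes, in units) against the skin disease score of each of the 12 mice. Littermates sit at a score of 0, open points lie at or below background, and the CLE mouse with a score of 3 and the Merkel het CLE mouse with a score of 3 read 261 and 292 units of Sting1.

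Other genes of the same pathway gave a background for these values. Of 50 tested genes in 9 lists by role, none passed in CLE against littermates, and 42 had a positive difference, or 84.0%, against 72.5% of all tested genes. Between Merkel het CLE and littermates 3 rose and 2 fell, where 4.88% of all tested genes passed as higher and 6.87% as lower, so the share called was close to that of the whole panel. Of the 50, 31 were positive, or 62.0%, against 51.0% of all tested genes. Their median was 0.66 and 0.32 in these comparisons, against 0.35 and 0.01 over all genes. The lists were drawn up with earlier results of these data known, and no test was made of them as groups.

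None of the tested cytosolic sensors, endosomal TLR helpers, adaptors and kinases on these lists passed in either disease group against littermates. Ifi204, a cytosolic DNA sensor of the interferon-inducible family, had a difference of 1.05 in CLE and 0.76 in Merkel het CLE against littermates. The RNA helicases Ifih1 (MDA5) and Ddx58 (RIG-I) stood at 0.53 and 0.51 in CLE. Of 12 adaptors and kinases, including Irak1, Irak4, Traf6 and the IKK subunits, none passed in any comparison. The median of these 12 was 0.02 in CLE and -0.31 in Merkel het CLE against littermates, below that of all genes in both. Ikbke, a close relative of Tbk1, had a difference of -0.75 in Merkel het CLE against littermates with an adjusted p of 0.142. Ctss, a protease that trims endosomal TLRs, and Cd14, a co-receptor, had differences of 1.78 and 2.56 in CLE and 1.98 and 3.00 in Merkel het CLE, and neither passed. Both are also abundant in macrophages and monocytes.

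Of 4 other interferon regulatory factors on the panel, 1 passed in Merkel het CLE against littermates. Irf4, a lymphocyte and dendritic cell factor that competes with Irf5 for Myd88, fell by 2.04 ± 0.30 in Merkel het CLE against littermates (limma adjusted p = 0.00443). Its mean was 54.0 ± 16.9 units there, 121 ± 37.2 in CLE and 221 ± 40.5 in littermates (SD, n = 4). In CLE the difference was -0.89 ± 0.30 with an adjusted p of 0.130. The Irf4 call in Merkel het CLE held in all 12 fits that left out 1 library, with differences of -2.24 to -1.94 and adjusted p up to 0.0287. It was lost in TLR9 ko/ko libraries alone (-2.27, adjusted p = 0.106) and without K14Cre+ littermates (-2.16, adjusted p = 0.0861). Of 6 tested T cell markers, Cd3e, Cd3d and Cd247 fell in Merkel het CLE against littermates, where 6.87% of all tested genes passed as lower. Their calls were lost in both of those settings as well. Cd2, Cd4 and Cd5 did not pass, at -0.54, 0.30 and 0.70. The sum of all 7 on the panel was 261 to 429 units there against 432 to 659 in littermates. The part of these cells in the Irf4 values was not tested. Irf1 stood at 1.18 in CLE and -0.37 in Merkel het CLE, and neither value passed.

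The targets of the pathway are interferon-induced genes and genes driven by NF-kB. Cxcl10, an interferon-induced chemokine, averaged 2243 ± 1542 units in CLE, 215 ± 100 in Merkel het CLE and 85.2 ± 28.6 in littermates (SD, n = 4). Its difference from littermates was 4.02 ± 0.87 in CLE, which did not pass (adjusted p = 0.111), and 1.26 ± 0.87 in Merkel het CLE. It rose in the contrast of both disease groups with littermates, by 2.64 ± 0.75 (adjusted p = 0.0442), a call kept in 1 of 12 fits that left out 1 library, the one without CLE 3. All 8 interferon-induced genes had positive differences in CLE, with a median of 1.00, and 7 of 8 in Merkel het CLE, with a median of 0.53. The difference between the disease groups did not pass for any of the 8.

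Of 11 tested NF-kB targets, Il1b, Ptgs2 and Il6 rose and Il12a fell in Merkel het CLE against littermates, and 7 did not pass. Over all tested genes 4.88% passed as higher and 6.87% as lower. Il1b, an inflammasome-processed cytokine, rose by 4.62 ± 1.17 and Ptgs2, which makes prostaglandins, by 4.10 ± 0.95. Il6 was below background in all 4 littermates and above it in all 4 Merkel het CLE libraries, with a fitted difference of 3.18 ± 0.85 that is not a bound. Il12a was above background in 3 littermates and in 0 Merkel het CLE libraries. Il1b, Ptgs2 and Il12a kept their calls in 5 and Il6 in 4 of 12 fits that left out 1 library, none of them without a littermate or without Merkel het CLE 1, 3 or 4. All 4 calls were also lost in TLR9 ko/ko libraries alone and without K14Cre+ littermates. The 4 tested neutrophil markers rose in the same comparison, against 4.88% of all tested genes. Their calls were lost in the same 2 settings. Cxcr2 was below background in all 4 littermates. S100a8 and S100a9 averaged 19622 and 13497 units in Merkel het CLE, against 327 each for Cxcr2 and Csf3r. The sum of 6 neutrophil markers was 9852 to 61057 units in Merkel het CLE against 137 to 516 in littermates. CLE 1 had 236411 units and the other CLE libraries 1246 to 11457. The part of neutrophil RNA in the NF-kB targets was not tested. The interferon genes Ifna1, Ifna2 and Ifnb1 had probes but did not pass the filter on background.

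**Figure D4:**
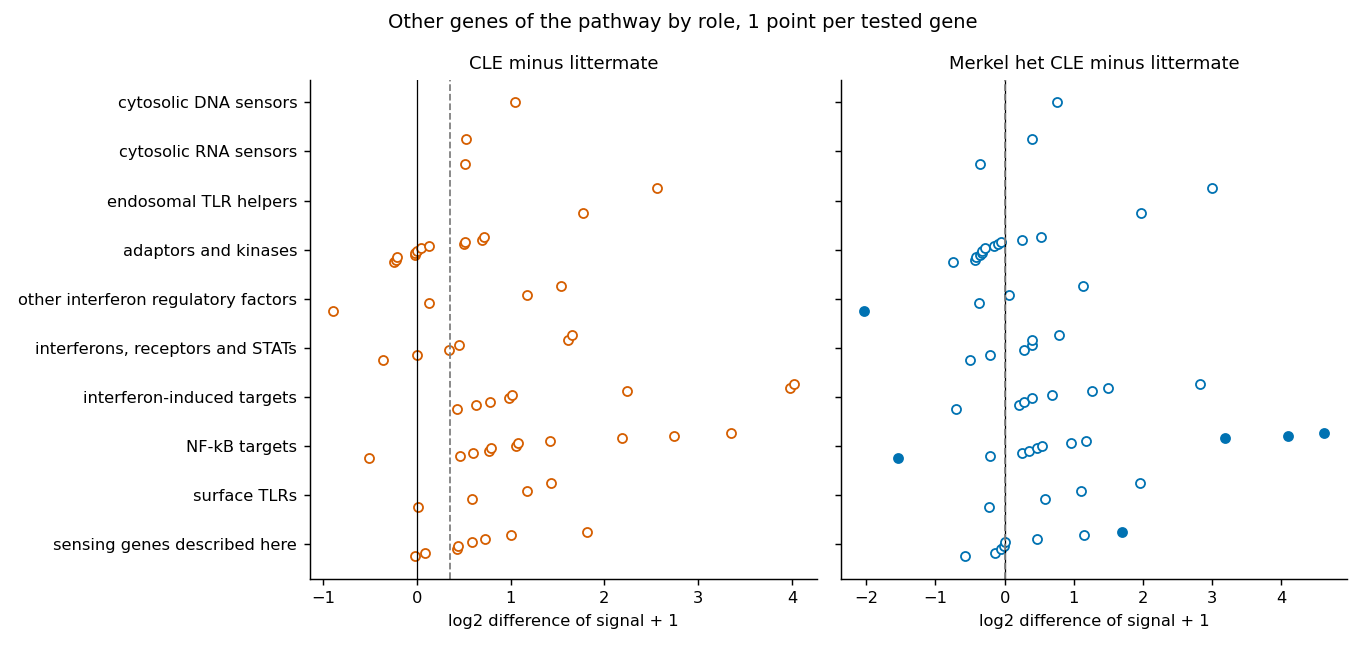
Log2 difference of signal plus 1 of each tested pathway gene by role, in CLE against littermates and in Merkel het CLE against littermates. Each point is 1 gene, filled where the limma adjusted p is under 0.05, and the dashed line is the median of all 451 tested genes, 0.35 in CLE and 0.01 in Merkel het CLE. Adaptors and kinases have a median of 0.02 in CLE and -0.31 in Merkel het CLE. The filled points in Merkel het CLE are Sting1, Il1b, Ptgs2 and Il6 on the right and Irf4 and Il12a on the left.

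The panel genes whose order over the 12 libraries was most like each sensing gene were found by the mean absolute difference in rank. Signal was first centred on the median of the tested genes in each library, on the log2 scale of signal plus 1. The order can therefore differ from that of the deposited units given here. Ranks share the library and its depth, so they are a description. For Sting1 these were Csf2rb, the shared beta chain of receptors for myeloid growth factors (0.833 ranks), the TNF receptor Tnfrsf1b (1.00) and the transcription factor Batf (1.17), where the median over all genes was 4.67. Csf2rb ran from 123 to 152 units in littermates, 168 to 912 in CLE and 221 to 665 in Merkel het CLE. For Tlr8 they were the surface receptor Tlr1 (0.833), the cathepsin Ctss (1.17) and the phagocyte oxidase subunit Cybb (1.17), against a median of 4.83. For Myd88 they were the transcription factor Stat3 (1.00), the inflammatory transcription factor Cebpb (1.33) and the platelet integrin Itga2b (1.33), against a median of 3.83. Cebpb ran from 2913 to 3372 units in littermates and 3816 to 8880 in CLE. For Tlr3 the nearest were Adal and the stress kinase Mapk14 (0.833 each), then the tetraspanin Cd82 (1.00), and Mapk14 ran from 656 to 756 units in Merkel het CLE against 1016 to 1330 in littermates. The nearest to Irf3 was Il13 (0.5 ranks), which was above background in 4 of 12 libraries, so this likeness rests on values near background. Ccr10 and Cd3eap followed (1.17 each). For Tbk1 the nearest probe had no gene name in the table used (0.833), followed by the surface protein Cd99 and the cytokine signalling inhibitor Cish (1.5 each). For Irf5 they were the interferon gamma receptor chain Ifngr2 (1.17), the growth factor Tgfb2 and the ubiquitin-conjugating enzyme Ube2l3 (1.33 each). For Tlr9 they were the blood cell transcription factor Tal1 (1.67), Pdcd2 (1.83) and the inhibitory lymphocyte receptor Btla (2.00).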

How the data were processed

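RNA from the skin of 12 mice was counted with NanoString's panel of mouse immune genes. Per the labels' protocols, RNA was purified on Qiagen RNeasy columns and probes were labelled after the maker's instructions. The deposited signal of a gene probe is its barcode count multiplied by 1 factor per lane: 100% of values above a floor of 1 lay within 0.02 units of a whole multiple of the lane's step (0.715 to 5.56 units). The sources used here do not say how the authors chose that factor. Control probes (6 positive, 8 negative) were deposited as raw counts. Probes were named through RefSeq identifiers (549 of 561 named). Tests covered genes whose count lay above the lane's negative-control mean plus 2 SD in at least 4 libraries. This left 451 genes, with 12 reference genes set aside and 98 below the filter.

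Groups and genotypes followed the sample labels, and replicate numbers follow accession order and pair nothing. Differences were fitted with limma 3.58.1 (R 4.3.3) on log2(signal + 1), which understates differences of low signals, over 12 libraries in 3 group means, with the prior variance following the mean. P-values were adjusted by Benjamini and Hochberg across all 451 genes, with a threshold of 0.05. The score was fitted in 8 diseased mice with each group at its own level, and TLR9 genotype in a fit of 5 means. Each library is another mouse, and the tests weigh differences against mouse-to-mouse spread. Exact two-sided permutation tests served single genes. The code was tested on simulated data. The sensing genes and pathway lists were chosen with earlier results of these data known. Named pathway genes are up to 4 per list past the threshold by size, or otherwise up to 2 with the smallest unadjusted p. The value of Irf1 in Merkel het CLE against littermates, the names of 3 adaptors and the promoter motifs fall outside this rule and were chosen after values were seen. For each sensing gene the panel genes most alike in rank over libraries, after centring each library on its median, are named as well. Alternatives covered lane scaling, background subtraction, filters, the pseudocount, the variance model, title number, genotype and leaving out libraries. Tables were handled in pandas 2.3.3 on Python 3.11.15 and plots drawn in matplotlib 3.10.9.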

Additional observations from a re-analysis of the deposited data

Results flagged for a closer look

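In 24 groups of 4 mice (8 genes in 3 groups), 2 held a library that stood apart, by a gap to its nearest neighbour above Dixon's 95% critical share of the group's range. Gaps and ranges were taken on the log2 scale of signal plus 1. Chance alone gives about 1 such group in 20. Tlr9 in CLE 1 was 156 units, against 34.6 to 42.9 units in the other CLE mice, a gap of 0.857 of the range on that scale. That value rests on 28 barcode counts, and CLE 1 had the largest lane factor, 5.56. Myd88 in littermate 2 was 441 units, against 276 to 283 units in the other littermates, a gap of 0.947 of the range on that scale. Littermate 2 had the fewest gene counts, 99297, and a lane factor of 4.04. The part of depth in either value was not tested.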

How the results depend on the processing

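Leaving out 1 library at a time, the number of sensing genes past the threshold ran from 0 to 3 in CLE against littermates, 0 to 1 in Merkel het CLE against littermates and 0 to 2 with both disease groups in 1 contrast. The highest numbers in CLE and with both groups came without CLE 3. With array weights 3 of the 8 genes passed in each of these 3 comparisons. Calls over all tested genes then numbered 108, 185 and 196, in the same order. For Merkel het CLE 0 passed after background subtraction (Sting1 at 3.27), with no filter (1.70), with a pseudocount of 16 (1.48), in TLR9 ko/ko libraries alone (1.46), without K14Cre+ littermates (1.85) and without littermate 2 and CLE 1 (1.61). With both groups 0 passed under the last 4 of these. After background subtraction Sting1 in littermate 2 stood at -5.56 units and was set to a floor of 1. Among genes above background in all 12 libraries Sting1 was not tested and 0 passed in these 2 contrasts. Over all genes, counts varied from 0 (ko/ko libraries alone, or no K14Cre+ littermates) to 185 (array weights) around 53 in Merkel het CLE against littermates, from 0 to 196 around 46 with both groups, from 0 to 138 (without CLE 3) around 0 in CLE against littermates, and from 0 to 28 around 1 between the disease groups.

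Only differences that did not pass changed sign. In CLE against littermates, Irf3, Irf5 and Tlr9 turned to -0.042, -0.39 and -0.039 with centring, which moved the median of all genes from 0.35 to -0.12, and to -0.084, -0.36 and -0.19 with quantile normalization. Irf5 turned to -0.0016 with rescaling and -0.088 without K14Cre+ littermates, and Tlr3 to 0.062 with array weights and 0.26 without littermate 2 and CLE 1. In Merkel het CLE against littermates, Irf3, Tbk1 and Irf5 turned to 0.18, 0.035 and 0.0023 after background subtraction, Irf3 to 0.13 without littermate 2 and CLE 1, and Irf5 to 0.055 with array weights and 0.018 in ko/ko libraries. Tlr9 there turned to -0.12, -0.33 and -0.21 with rescaling, centring and quantile normalization, and to -0.033, -0.023, -0.48 and -0.26 with a pseudocount of 16, the title block, ko/ko libraries and no K14Cre+ littermates. Between the disease groups, Sting1 turned to 0.020 with centring, 0.022 with quantile normalization, 0.013 after background subtraction and 0.20 without littermate 2 and CLE 1. Irf5 turned to 0.00082 and 0.031 with centring and quantile normalization, Tlr3 to 0.83 and Tlr9 to 0.081 after background subtraction, and Tlr9 to 0.060 without littermate 2 and CLE 1. The cause was not tested.

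With 1 library left out, CLE against littermates ran from -0.12 to 0.15 (Tlr3), -0.056 to 0.90 (Tlr9) and -0.020 to 0.21 (Irf5). Merkel het CLE against littermates ran from -0.34 to 0.13 (Irf3), -0.17 to 0.062 (Irf5), -0.070 to 0.048 (Tbk1) and -0.29 to 0.47 (Tlr9). The disease groups differed by -0.60 to 0.20 (Sting1), -0.29 to 0.50 (Tlr8) and -0.65 to 0.060 (Tlr9), and ko/ko from wt/wt mice by -1.17 to 0.18 (Sting1). A planned edgeR test was not run. A check over all rows, with the raw control probes and the floored values included, found whole multiples of 1 step in 3 of 12 lanes alone. Gene probe values above the floor were whole multiples in every lane. No paired analysis was possible because replicate numbers follow accession order and pair no mice. Title number, shared by some mice, was fitted as a random block (consensus correlation 0.213), and Sting1 in Merkel het CLE against littermates then kept its call, at 1.77. Scaled background in littermate 2 and CLE 1 limits Tlr3, Tlr9 and Irf3.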

Other observations

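Among the 4 mice whose titles carry the number 23, 2 were Merkel het CLE and 2 littermates. Sting1 and Tlr8 were 2.09 and 1.42 higher in these Merkel het CLE mice on the log2 scale, and Tlr3 and Irf5 differed by -0.82 and -0.23, each with no overlap. These 4 of the 8 genes stand against 57.9% of all tested genes without overlap in the same mice. Tbk1 differed by 0.02. These values have no test of their own.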
